A study of Mus musculus with 79 samples.

Results

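Non-pathogenic Th17 cells that had divided exactly once were compared with the unsorted population of cultures of the same kind. These cultures received a solvent and no compound. The labels do not say which libraries of the 2 sorts, if any, come from the same culture. The members are 19 of the 79 libraries of the series, chosen by their labels: 9 libraries of the first division (Div.1) and 10 of the unsorted cells (Total). Th17n stands for mouse T cells differentiated in vitro with TGFb and IL6. The cells were labelled with CFSE, a dye that is diluted with every division, so that cells of a single division could be sorted by flow cytometry. The solvent was DMSO, which carried the green tea catechin EGCG elsewhere in the series, or methanol, which carried the steroid DHEA. DMSO gave 4 Div.1 and 5 Total libraries, and methanol gave 5 of each. The series' design names 5 mice per condition, while strain, age and sex are not given in the sources used here. Polyadenylated RNA was sequenced and expressed in TPM, the share of all transcripts that a gene takes after correction for transcript length. Div.1 was compared with Total within each solvent, and the 2 differences were averaged with equal weight. A further library, of well A4, carries the label Th17n DMSO Div.1 but lies in a plate row that otherwise holds Th17p libraries, and it was left out. Its Foxp3 level was 0.394 TPM, against 71.5 to 136 TPM in the 4 other libraries with that label.

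Th17 cells are CD4 helper cells defined by the cytokines IL-17A and IL-17F. With TGFb and IL6 they also carry features of regulatory T cells, including IL-10 and some Foxp3, whereas IL1b, IL6 and IL23 give the pathogenic form, Th17p. An activated T cell leaves quiescence, raises glycolysis, lipid synthesis and protein folding capacity, and then divides several times, and cytokine genes can become expressed at different division numbers. The Total population holds cells of every division number, Div.1 cells included, in shares not known here.

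The 19 libraries were alike in breadth, with 9454 to 9675 genes at 1 TPM or more, and pairs of libraries within a group correlated at 0.9877 to 0.9925 (Pearson, log2 scale, across genes). Read depth cannot be read from TPM and is unknown. The T cell label held: 9 T cell identity genes summed to 2369 to 2954 TPM in Div.1 and 2241 to 2935 TPM in Total. Markers of B cells, dendritic cells, granulocytes, erythroid cells and stroma summed to at most 15.7 TPM in any of these libraries. Markers of CD8 T and NK cells added up to 16.2 to 37.7 TPM in Div.1 and 11.9 to 26.9 TPM in Total, with 8 of 12 under 1 TPM in every library and Ncr1 and Gzma at 0. Of that list Cd8b1 (log2 difference 0.41 ± 0.090; adjusted p = 0.000378) and Prf1 (0.48 ± 0.15; adjusted p = 0.0106) were higher in Div.1. The macrophage and monocyte markers summed to 39.99 to 53.2 TPM in Div.1 and 32.4 to 43.8 TPM in Total. Nearly all of that sum was Ctss, a lysosomal protease gene that T cells also express, and 9 of the 10 genes measured were under 1 TPM in every library. The part of these cell types in the results below was not tested.

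In Div.1 the signature cytokine genes of Th17 cells, genes of lipid synthesis and glycolysis, and genes of protein folding were lower than in Total. Genes of naive and quiescent T cells, ribosomal protein genes and a few regulatory T cell genes, Foxp3 among them, were higher. Of 10672 genes tested, 2337 were called at an adjusted p under 0.05 (limma on log2(TPM + 1), Benjamini-Hochberg over all genes tested), which is 21.9%. Of these, 619 were higher in Div.1 (5.80% of genes tested) and 1718 were lower (16.1%). These 3 percentages are the background for each count of a gene list below that comes from this test. Every difference below is Div.1 minus Total on the log2(TPM + 1) scale, followed by its standard error, and it understates the change of genes at a few TPM. The changes were small, with a median size of 0.21 among called genes. Only 35 genes were called and at least 1.5-fold higher, and 37 were called and at least 1.5-fold lower. The direction was the same in DMSO and in methanol for 2325 of the 2337 genes, which the averaging itself favours.

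The balance of higher and lower calls depended on the scaling. As deposited, 26.5% of the calls were higher in Div.1, and the median gene stood at -0.028. After rescaling each library by its median ratio to the others, 1074 genes were higher (10.1%) and 1188 lower (11.1%), so that 47.5% were higher, and 1807 of the 2337 calls were kept with the same sign. Div.1 cells went through the sorter and Total cells did not, so an effect of the sort and an effect of division number cannot be told apart here. In these bulk libraries, fewer cells that express a gene and less of its RNA per cell cannot be told apart either. The labels tie no library to a mouse, so the p-values measure the spread between libraries. That spread was pooled over all 16 groups in the fit, Th17p and compound groups included. With the groups of each comparison fitted alone, 2092 genes were called over both solvents, and 11 instead of 319 in methanol.

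Il17a and Il17f encode the subunits of the IL-17 dimers and lie on mouse chromosome 1 (mm10: Il17a, chromosome 1, 20730905 to 20734496, plus strand; Il17f, chromosome 1, 20777146 to 20790617, minus strand). Their promoters are shown because these cytokines define the cell type and were lower in Div.1. The 250 bases before each start are given 5' to 3' on the strand of the gene (RefSeq, GRCm38.p6), with capitals marking the AGGTCA letters of a nuclear receptor half-site, read as TGACCT where it lies on the other strand. The RefSeq start of Il17f lies inside the gene span of the GENCODE annotation.
Il17a, chr1:20730655-20730904, plus strand: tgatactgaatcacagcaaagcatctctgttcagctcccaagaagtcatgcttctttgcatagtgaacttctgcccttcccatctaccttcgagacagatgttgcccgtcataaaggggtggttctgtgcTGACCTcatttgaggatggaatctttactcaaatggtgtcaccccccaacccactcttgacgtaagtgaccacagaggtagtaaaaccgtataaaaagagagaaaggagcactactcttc
Il17f, chr1:20784271-20784520, minus strand: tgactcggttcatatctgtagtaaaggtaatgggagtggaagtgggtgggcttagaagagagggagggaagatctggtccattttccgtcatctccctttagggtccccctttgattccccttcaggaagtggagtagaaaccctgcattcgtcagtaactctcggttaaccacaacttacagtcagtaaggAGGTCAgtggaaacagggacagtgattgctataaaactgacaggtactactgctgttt
Each window holds 1 match, 120 to 115 bases before the start of Il17a and 58 to 53 before that of Il17f. On either strand AGGTCA was present in 5 of 14 core Th17 genes matched by symbol (35.7%) and in 4607 of all 32851 mouse promoter windows of that length (14%). A listed gene counts once if any of its windows matches, so the first share is per gene and the second per window. A match describes letters and does not show binding.

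In DMSO, Il17a stood at 90.0, 147, 166 and 77.1 TPM in the 4 Div.1 libraries and at 303, 549, 431, 298 and 254 TPM in the 5 Total libraries. In methanol it stood at 119.6, 113, 223, 86.0 and 165 TPM in the 5 Div.1 libraries and at 225, 435, 439, 324 and 399 TPM in the 5 Total libraries. All Div.1 libraries lay below all Total libraries within each solvent, and the difference was -1.51 ± 0.32 (limma, adjusted p = 0.000265). In DMSO, Il17f stood at 3777, 4010.2, 4257 and 3426 TPM in the 4 Div.1 libraries and at 7461, 7063, 7237, 6096 and 6146 TPM in the 5 Total libraries. Its values with methanol were 3121, 3354, 3947, 3487 and 4051 TPM in the 5 Div.1 libraries and at 4853, 5278, 5359.6, 4104 and 5389.9 TPM in the 5 Total libraries. Il17f was the more abundant of the pair, and its sorts did not overlap within either solvent. Its difference was -0.65 ± 0.14 (limma, adjusted p = 0.000427), with -0.81 ± 0.21 in DMSO and -0.48 ± 0.20 in methanol.

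Of 18 core Th17 genes, 7 were lower in Div.1 and none was higher, with a median of -0.31 against -0.028 over all genes tested. In DMSO alone 6 were lower (median -0.40), and in methanol alone none was called (median -0.10). Of all genes tested, 15.9% were called in DMSO and 2.99% in methanol, with medians of -0.04 and -0.014. Ccl20, the chemokine ligand of CCR6, stood at 52.1, 54.3, 100.1 and 31.3 TPM in Div.1 and at 129, 153, 158, 157 and 132 TPM in Total with DMSO. With methanol its values were 60.9, 74.6, 111, 70.6 and 131 TPM in Div.1 and 148, 98.8, 212, 179.9 and 247 TPM in Total, where the groups overlapped. The Ccl20 difference was -1.18 ± 0.25 (limma, adjusted p = 0.000205). Il21, which encodes an autocrine cytokine of Th17 cells, fell by 0.57 on the log2 scale, from 57.5 ± 5.42 (SD, n = 5) to 33.7 ± 2.54 TPM (SD, n = 4) in DMSO and from 60.6 ± 8.22 to 46.6 ± 8.97 TPM (SD, n = 5 each) in methanol. Il23r, the receptor gene for IL23, fell by 0.51 (limma, adjusted p = 0.00393). Maf, a transcription factor that drives IL-10 in helper cells, fell by 0.28 (limma, adjusted p = 0.0126). With a pseudocount of 0.1 the Maf call ended (adjusted p = 0.178; limma), at a difference of -0.287. Maf means in the Th17p solvent groups, which share the spread, were 0.714 to 1.04 TPM. With the compared groups fitted alone the Il23r call ended (adjusted p = 0.0651; limma).

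Further transcription factor genes of the Th17 state did not pass the test. Batf differed by 0.074 ± 0.047 and Irf4 by -0.054 ± 0.044, with adjusted p of 0.283 and 0.414. Rora (0.21 ± 0.20; adjusted p = 0.516), Ahr (-0.14 ± 0.080; adjusted p = 0.219) and the receptor gene Ccr6 (-0.059 ± 0.17; adjusted p = 0.86) were not called either. Tbx21 (0.19 ± 0.13; adjusted p = 0.341) and Gata3 (0.21 ± 0.10; adjusted p = 0.128), the master regulators of Th1 and Th2 cells, did not pass.

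Il9 was abundant and variable. In DMSO, Il9 stood at 1457, 1482, 1874 and 1177 TPM in the 4 Div.1 libraries and at 1914, 2741, 3239, 2669 and 2708 TPM in the 5 Total libraries. With methanol Il9 stood at 1195, 916, 2079.6, 1957 and 1664 TPM in the 5 Div.1 libraries and at 1687, 1229, 2548, 2479.7 and 2857 TPM in the 5 Total libraries. Its groups overlapped in methanol and not in DMSO, and its difference of -0.65 ± 0.27 was not called (limma, adjusted p = 0.0753). It was called with the compared groups fitted alone (limma, adjusted p = 0.0132). Il10, the anti-inflammatory cytokine gene of the non-pathogenic form, fell by 0.52 (limma, adjusted p = 0.0112), from 33.8 ± 8.21 (SD, n = 5) to 22.7 ± 6.97 TPM (SD, n = 4) in DMSO. The Il10 call ended with a pseudocount of 0.1 (adjusted p = 0.251; limma), at a difference of -0.539. Il10 means in the Th17p solvent groups, which share the spread, were 0.0166 to 0.348 TPM. Il22 lay at 0.303 to 8.83 TPM in Div.1 and 0.0948 to 13.4 TPM in Total, and was not called (-0.35 ± 0.30; adjusted p = 0.455). Of 7 genes of the non-pathogenic signature, 2 were lower and 1 higher, with 4 lower without the methanol Total library of replicate 7 and none higher without the DMSO Div.1 library of replicate 4. Of 15 genes of the pathogenic signature, 3 were higher and none lower, with a median of 0.005. The largest of these was Lgals3, a galectin gene (0.78 ± 0.15; adjusted p = 8.64e-05), at 22.003 ± 8.68 TPM in Div.1 (SD, n = 4) and 9.34 ± 1.96 TPM in Total (SD, n = 5) with DMSO.

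**Figure D1:**
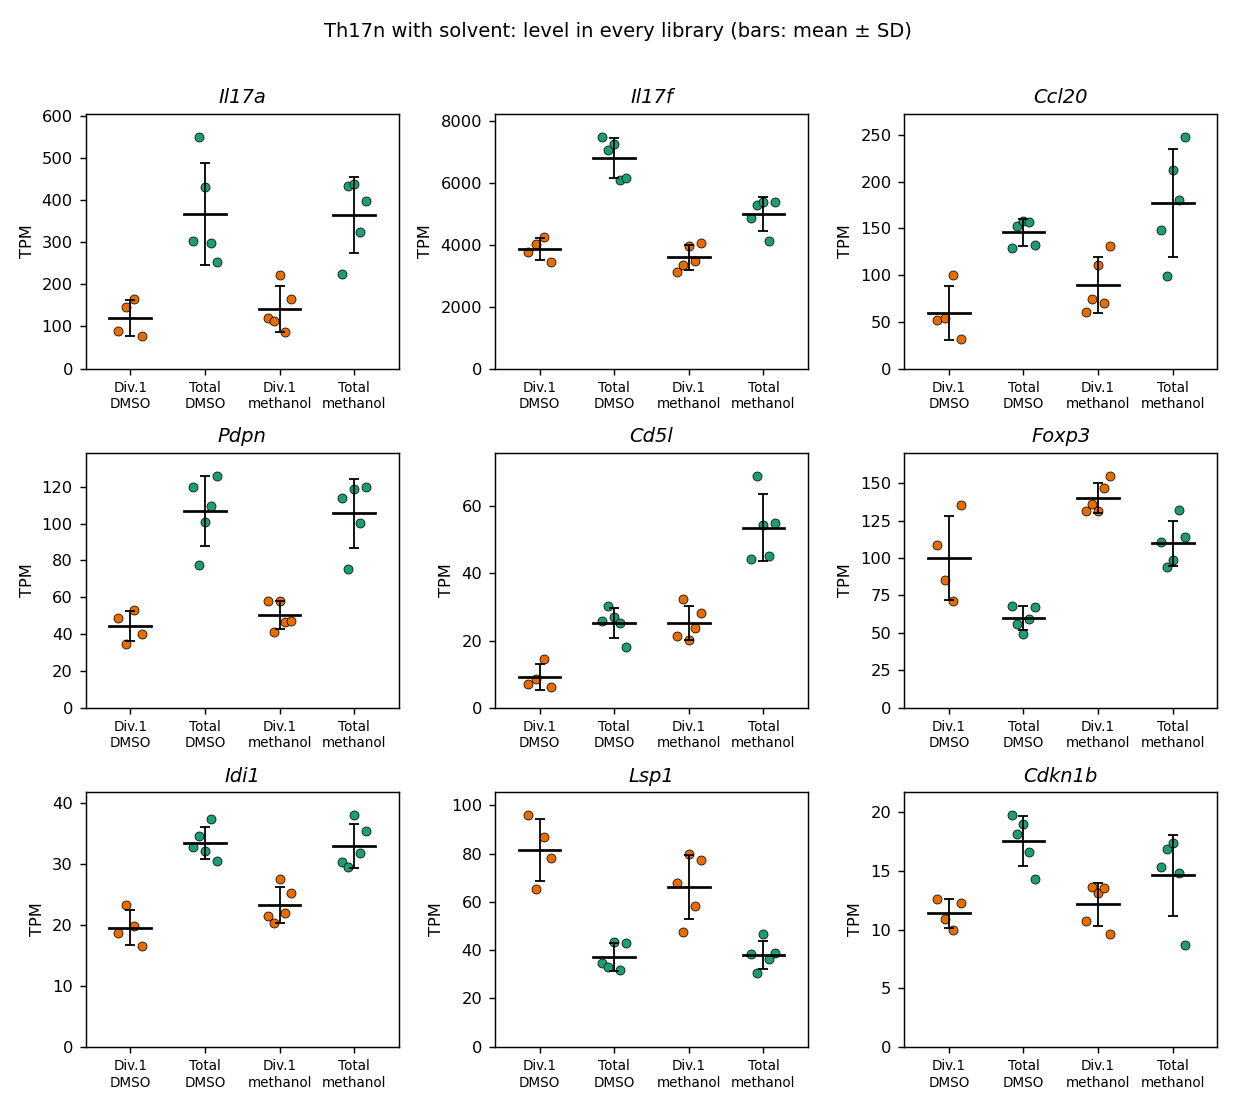
Level in TPM (vertical axes, from 0) of 9 genes in each of the 19 libraries, by sort and solvent, where points are libraries and bars give the mean ± SD. Il17a, Il17f, Pdpn, Cd5l and Idi1 lie lower in every Div.1 library than in every Total library of the same solvent, Lsp1 lies higher, and Ccl20, Foxp3 and Cdkn1b overlap in at least 1 solvent.

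After Il17a the genes lowest in Div.1, among those at 5 TPM or more whose libraries did not overlap, were Cd5l, Pdpn and Timd2. Such non-overlap within both solvents held for 112 genes with Div.1 lower (1.05% of genes tested) and for 38 with Div.1 higher (0.356%). Cd5l (chromosome 3, 87357881 to 87371073, plus strand) encodes a secreted scavenger receptor protein known as a lipid regulator of the non-pathogenic Th17 state. In DMSO, Cd5l stood at 7.12, 8.60, 14.6 and 6.09 TPM in the 4 Div.1 libraries and at 25.9, 30.2, 26.9, 25.1 and 17.9998 TPM in the 5 Total libraries. In methanol it stood at 21.4, 32.5, 20.0, 23.6 and 28.3 TPM in the 5 Div.1 libraries and at 44.3, 68.9, 54.5, 45.3 and 55.1 TPM in the 5 Total libraries. Its values with methanol lay above those with DMSO in both sorts, and the sort difference was -1.43 ± 0.30 in DMSO and -1.07 ± 0.28 in methanol (mean -1.25; limma, adjusted p = 4.09e-06).

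Pdpn (chromosome 4, 143267431 to 143299564, minus strand) encodes podoplanin, a surface glycoprotein found on Th17 cells. In DMSO, Pdpn stood at 48.8, 34.7, 52.8 and 40.3 TPM in the 4 Div.1 libraries and at 120.0, 77.7, 101, 109.5 and 126 TPM in the 5 Total libraries. Its values with methanol were 58.2, 41.3, 58.1, 46.4 and 47.1 TPM in the 5 Div.1 libraries and at 114, 75.3, 119, 100.2 and 119.8 TPM in the 5 Total libraries. The 2 sorts were separated by a gap in each solvent, and the difference was -1.15 ± 0.12 (limma, adjusted p = 5.11e-10). Timd2, a TIM family surface receptor gene, fell by 0.87 (limma, adjusted p = 1.09e-06), from 11.3 ± 1.24 (SD, n = 5) to 5.40 ± 1.18 TPM (SD, n = 4) in DMSO. Cyp1b1, a target of the aryl hydrocarbon receptor, fell by 1.04 (limma, adjusted p = 6.83e-07), while Ahr itself was not called. AA467197 (-0.77), the leukotriene receptor gene Cysltr1 (-0.73) and the tubulin gene Tubb6 (-0.69) were the next lowest, all called and without overlap within either solvent. Perp (-0.56), a desmosomal and p53-induced membrane protein gene, Plscr1 (-0.50), a phospholipid scramblase gene, and Dstn (-0.48), which encodes the actin-severing protein destrin, followed.

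The gene with the largest increase under the same conditions was Lsp1 (chromosome 7, 142460809 to 142494867, plus strand), which encodes a leukocyte F-actin-binding protein. In DMSO, Lsp1 stood at 95.8, 65.4, 86.9 and 78.3 TPM in the 4 Div.1 libraries and at 34.9, 32.9, 43.4, 31.7 and 43.1 TPM in the 5 Total libraries. With methanol Lsp1 stood at 67.7, 47.5, 79.9, 58.5 and 77.3 TPM in the 5 Div.1 libraries and at 38.6, 30.5, 46.7, 36.2 and 38.7 TPM in the 5 Total libraries. Every Div.1 library exceeded every Total library of its solvent, and the difference was 0.94 ± 0.081 (limma, adjusted p = 1.64e-13). Ly6c1, a surface marker of the Ly6 family with close paralogs between which reads can be split, rose by 0.89 (limma, adjusted p = 5.62e-06). Cd101, an inhibitory immunoglobulin family receptor gene, rose by 0.64, from 8.22 ± 1.70 (SD, n = 5) to 14.5 ± 1.93 TPM (SD, n = 4) in DMSO.

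Rgcc, a regulator of cyclin-dependent kinase 1, was the most abundant of the 15 named higher genes at 357 ± 72.4 TPM in Div.1 (SD, n = 4) and 226 ± 31.8 TPM in Total (SD, n = 5) with DMSO, and rose by 0.57 (limma, adjusted p = 3.32e-09). Gadd45g, a stress sensor that interacts with cell cycle kinases, rose by 0.54, and H2afv, an H2A.Z histone variant gene transcribed outside the histone clusters, rose by 0.51. Pacsin1 (0.61), Lbh (0.50), Ptms (0.45), the pseudokinase gene Trib2 (0.42) and the tetraspanin gene Tspan32 (0.35) were also higher. So were Tapbp (0.35), which encodes tapasin of the MHC class I loading complex, Trpc4ap (0.35) and the lysosomal protease gene Lgmn (0.34). The interferon-induced GTPase gene Tgtp1 (0.54) has a near-identical neighbour, Tgtp2, so its value is uncertain.

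The largest difference of any list member was that of Xcl1, the gene of the chemokine lymphotactin, at 1.80 ± 0.50 (limma, adjusted p = 0.00468), and it rested on overlapping libraries. In DMSO, Xcl1 stood at 5.48, 7.70, 1.81 and 1.26 TPM in the 4 Div.1 libraries and at 0.496, 3.84, 0, 1.89 and 0 TPM in the 5 Total libraries. In methanol it stood at 17.2, 6.49, 7.99, 1.09 and 24.8 TPM in the 5 Div.1 libraries and at 3.02, 0.545, 0.507, 0 and 0.961 TPM in the 5 Total libraries. Of the Div.1 libraries, 2 of 4 with DMSO and 4 of 5 with methanol lay above the highest Total library of their solvent.

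Foxp3, the master regulator gene of regulatory T cells, was higher in Div.1. In DMSO, Foxp3 stood at 109, 85.2, 71.5 and 136 TPM in the 4 Div.1 libraries and at 67.9, 56.1, 49.2, 59.002 and 67.3 TPM in the 5 Total libraries. Its values with methanol were 132, 136, 132, 147 and 155 TPM in the 5 Div.1 libraries and at 111, 93.8, 98.5, 132 and 114 TPM in the 5 Total libraries. In DMSO every Div.1 library lay above every Total library, and in methanol the highest Total library reached into the Div.1 range. The difference was 0.53 ± 0.12 (limma, adjusted p = 0.000453), with 0.70 ± 0.17 in DMSO and 0.35 ± 0.16 in methanol. With a pseudocount of 0.1 the Foxp3 call ended (adjusted p = 0.244; limma), at a difference of 0.534. The spread is shared with Th17p libraries, whose solvent group means of Foxp3 were 0.1215 to 0.254 TPM. Their part in the lost call was not tested. With the library of well A4 counted under its label, the Foxp3 difference turned to -0.086 (limma, adjusted p = 0.9). Lrrc32, which encodes the TGFb-presenting protein GARP, rose by 0.62 (limma, adjusted p = 0.000692), at 3.45 ± 0.795 TPM (SD, n = 4) against 1.63 ± 0.722 TPM (SD, n = 5) in DMSO. The regulatory T cell list did not move as one. Of 12 members 3 were higher and 2 lower, the latter being Ctla4 (-0.40; limma, adjusted p = 0.000141) and Il2ra (-0.14; limma, adjusted p = 0.00436), which activated conventional T cells also express.

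Genes of naive and quiescent T cells were higher in Div.1, with 11 of 21 called higher, none called lower and a median of 0.16. Without the DMSO Div.1 library of replicate 4 the count was 7, and over all 19 leave-outs it ran from 7 to 12. In DMSO alone 6 of the 21 were higher (median 0.20), and in methanol alone none was called (median 0.11). Tcf7 encodes TCF-1, a transcription factor of naive and memory T cells. In DMSO, Tcf7 stood at 89.3, 69.4, 86.2 and 91.9 TPM in the 4 Div.1 libraries and at 70.8, 63.1, 69.3, 62.7 and 66.04 TPM in the 5 Total libraries. With methanol Tcf7 stood at 87.2, 75.4, 81.0, 76.8 and 89.7 TPM in the 5 Div.1 libraries and at 79.9, 67.4, 65.6, 63.5 and 73.9 TPM in the 5 Total libraries. The sorts overlapped in both solvents, with each solvent's highest values in Div.1, and the difference was 0.28 ± 0.069 (limma, adjusted p = 0.00169). Klf2, the transcription factor that maintains quiescence, was at low levels throughout, 2.24 ± 0.912 TPM in Div.1 (SD, n = 4) and 0.927 ± 0.536 TPM in Total (SD, n = 5) with DMSO, and rose by 0.66 (limma, adjusted p = 0.000955). Ccr7, a lymph node homing receptor gene, rose by 0.20 and the antiproliferative gene Btg1 by 0.18. Of 16 chemokine receptor and homing genes kept, 6 were higher, among them Ccr7, Ccr8 (0.28), Selplg (0.20), Itgb7 (0.33) and S1pr4 (0.15), of which Itgb7 and S1pr4 were named after their values were seen. The integrin gene Itgal was lower (-0.18).

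Surface genes of activated T cells were lower, 6 of 15, against 1 higher. Without the DMSO Div.1 library of replicate 1 the lower count was 3, and over all 19 leave-outs it ran from 3 to 8. Tfrc, the transferrin receptor gene, fell by 0.39 (limma, adjusted p = 7.47e-07), from 177 ± 17.2 (SD, n = 5) to 125 ± 15.4 TPM (SD, n = 4) in DMSO. Cd44, the hyaluronan receptor gene of antigen-experienced cells, stood at -0.29 (limma, adjusted p = 0.0184). That call ended without replicate 1 or 4 of DMSO Div.1, replicate 6 of methanol Div.1 or replicate 2 of DMSO Total, with limma adjusted p of 0.0752, 0.0543, 0.0592 and 0.0583. The OX40 gene Tnfrsf4 was lower as well (-0.23), a call that ended with the compared groups fitted alone (adjusted p = 0.0645; limma). Cd27, a costimulatory receptor gene of early T cells, was the member that rose (0.55 ± 0.12; adjusted p = 0.000222; limma).

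Il2, the T cell growth factor gene, was at 151 ± 95.0 TPM (SD, n = 4) in Div.1 and 163 ± 46.2 TPM (SD, n = 5) in Total with DMSO and was not called (-0.086 ± 0.15; adjusted p = 0.743). Lta, the lymphotoxin gene, fell by 0.34 and the surface ligand gene Cd200 by 0.41. Among 16 immediate early genes, the orphan nuclear receptor genes Nr4a1 (0.37) and Nr4a3 (0.38), which respond to the T cell receptor, were higher and Ier3 was lower (-0.39).

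Of 29 genes of G1 and S phase, 9 were lower and 2 higher (median -0.045), and none was higher without the DMSO Div.1 library of replicate 1. Of 28 genes of G2 and M phase, 6 were higher and none lower (median 0.035). After rescaling by the median ratio the counts were 6 lower and 3 higher for the first list and 10 higher and 0 lower for the second. With the GC trend removed they were 5 lower and 3 higher, and 11 higher and 0 lower. The difference between the phases was not tested. Ccne1, the cyclin gene that starts S phase, stood at 70.4, 70.7, 72.9 and 76.7 TPM in Div.1 and 96.8, 99.3, 89.1, 88.6 and 88.5 TPM in Total with DMSO. With methanol Ccne1 stood at 78.7, 75.9, 82.8, 71.9 and 75.2 TPM in Div.1 and 90.0, 105, 90.1, 84.5 and 86.1 TPM in Total. Its sorts did not overlap within either solvent, and it fell by 0.29 (limma, adjusted p = 7.87e-07). Rrm2, the ribonucleotide reductase subunit gene, fell by 0.23 (limma, adjusted p = 2.18e-06), and the histone mRNA binding protein gene Slbp by 0.25 (limma, adjusted p = 2.93e-06).

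Nusap1, a gene of the mitotic spindle, rose by 0.38 (limma, adjusted p = 2.89e-06), from 45.4 ± 3.17 (SD, n = 5) to 62.3 ± 2.71 TPM (SD, n = 4) in DMSO. Ube2c, the ubiquitin-conjugating enzyme gene of mitotic exit, rose by 0.25 and the kinase gene Aurkb by 0.17. Mki67, the gene of the proliferation marker Ki-67, was not called (0.064 ± 0.043; adjusted p = 0.31). Cdkn1b, which encodes the cyclin-dependent kinase inhibitor p27 of quiescent cells, fell by 0.40 (limma, adjusted p = 0.00505). In DMSO, Cdkn1b stood at 12.6, 10.9, 9.93 and 12.2 TPM in the 4 Div.1 libraries and at 19.7, 18.2, 18.99, 16.6 and 14.3 TPM in the 5 Total libraries. In methanol it stood at 10.7, 13.7, 13.2, 13.6 and 9.65 TPM in the 5 Div.1 libraries and at 15.3, 16.9, 17.4, 14.9 and 8.71 TPM in the 5 Total libraries. The sorts were apart in DMSO and overlapped in methanol. Cdkn1a (0.006 ± 0.12; adjusted p = 0.983), Ccnd2 (0.041 ± 0.053; adjusted p = 0.645) and Ccnd3 (-0.025 ± 0.049; adjusted p = 0.775) were not called. Myc, the growth regulator gene, rose by 0.17 (limma, adjusted p = 0.00487), at 298 ± 20.7 TPM in Div.1 (SD, n = 4) and 253 ± 20.1 TPM in Total (SD, n = 5) with DMSO.

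Of 22 genes of cholesterol synthesis measured, 16 were lower in Div.1, with none higher and a median of -0.22. In 20 of the 22 the difference was below 0 in DMSO and in methanol alike, as it was in 4536 of all 10672 genes tested. Idi1, the isopentenyl diphosphate isomerase gene, stood at 18.6, 23.3, 19.8 and 16.6 TPM in Div.1 and 32.9, 34.6, 32.2, 37.4 and 30.5 TPM in Total with DMSO. With methanol it stood at 21.5, 20.4, 27.5, 22.05 and 25.2 TPM in Div.1 and 30.3, 29.6, 38.01, 31.8 and 35.4 TPM in Total. Idi1 was lower in every Div.1 library than in every Total library of its solvent and fell by 0.62 (limma, adjusted p = 1.42e-07). Hmgcs1, the HMG-CoA synthase gene, fell by 0.45 (limma, adjusted p = 9.53e-06), Fdps, the farnesyl diphosphate synthase gene, by 0.30 and the sterol sensor gene Insig1 by 0.28. SREBP-2 switches these genes on through sterol regulatory elements when cholesterol is low.

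Of 16 cholesterol genes matched by symbol, 1, Hmgcs1, had a window with the letters TCACNCCAC of a sterol element on either strand (6.25%). Among all 32851 windows 1.05% held them, a share per window and not per gene. The Hmgcs1 promoter is shown with the match in capitals (RefSeq, GRCm38.p6, 250 bases before the start).
Hmgcs1, chr13:119690101-119690350, plus strand: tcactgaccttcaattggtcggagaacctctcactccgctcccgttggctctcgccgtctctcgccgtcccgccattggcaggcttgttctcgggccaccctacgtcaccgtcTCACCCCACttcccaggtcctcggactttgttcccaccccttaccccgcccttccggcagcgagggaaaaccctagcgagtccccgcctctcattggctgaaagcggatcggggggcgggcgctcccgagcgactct
The match lies 137 to 129 bases before the start. The windows of the other 15 genes lack these exact letters, which says nothing of other forms of the element or of sites elsewhere.

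Fatty acid synthesis followed the same direction, with 8 of 12 genes lower and none higher (median -0.17). Scd1, the stearoyl-CoA desaturase gene, fell by 0.75 (limma, adjusted p = 5.26e-05), from 10.2 ± 2.31 (SD, n = 5) to 5.38 ± 0.932 TPM (SD, n = 4) in DMSO. Acly, which makes cytosolic acetyl-CoA, fell by 0.21, and the desaturase gene Fads1 by 0.25. Acsl4, which activates polyunsaturated fatty acids, fell by 0.51 without overlap within either solvent (limma, adjusted p = 1.67e-09). Of 17 fatty acid oxidation genes 3 were lower and none higher, a share of the list close to the 16.1% of all genes.

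Glycolysis genes were lower in 11 of 19 cases and higher in none (median -0.16). Hk2, the hexokinase gene of activated T cells, fell by 0.34 (limma, adjusted p = 2.83e-05), from 32.3 ± 3.94 (SD, n = 5) to 23.9 ± 3.21 TPM (SD, n = 4) in DMSO. Pgam1, the phosphoglycerate mutase gene, stood at 1015, 1036, 1098 and 1018 TPM in Div.1 and 1288, 1334, 1257, 1211 and 1129 TPM in Total with DMSO. With methanol Pgam1 stood at 1031, 1037, 1052, 1098 and 1217 TPM in Div.1 and 1165, 1205, 1163, 1151 and 1283 TPM in Total. The Pgam1 difference was small and even, -0.20 ± 0.032 (limma, adjusted p = 4.09e-06), and its groups were apart in DMSO only. Aldoa fell by 0.21 and Pfkp by 0.24. Of 11 genes of the pentose phosphate pathway and NADPH supply, 6 were lower and 1 higher. Idh1, which makes cytosolic NADPH, fell by 0.57 (limma, adjusted p = 9.06e-07), and G6pdx, the entry enzyme gene, by 0.14 (limma, adjusted p = 0.00955).

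Oxidative phosphorylation depended on the scaling. Of 23 subunit genes, 10 were lower and none higher as deposited (median -0.052), and 5 were lower and 4 higher after rescaling. Without the DMSO Div.1 library of replicate 1, 6 were lower. Cycs, the cytochrome c gene, had the largest decrease, -0.30 (limma, adjusted p = 4.66e-09), and stayed lower after rescaling (-0.25; limma, adjusted p = 9.05e-08). Of 12 serine and one-carbon genes 6 were lower and none higher, among them the aminotransferase gene Psat1 (-0.22) and the mitochondrial folate enzyme gene Mthfd2 (-0.20), whose call ended with the compared groups fitted alone (adjusted p = 0.0573; limma).

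Genes of protein folding and of amino acid supply were lower together. Of 15 genes of the unfolded protein response 10 were lower, of 10 heat shock genes 7, and of 23 ATF4 targets 10, with none higher in any of the 3 lists. Their medians were -0.16, -0.15 and -0.15. Without the methanol Total library of replicate 10 the ATF4 count was 7, its lowest of 19 leave-outs. Canx, the calnexin gene, fell by 0.34 (limma, adjusted p = 4.66e-09), from 297 ± 17.3 (SD, n = 5) to 222 ± 5.18 TPM (SD, n = 4) in DMSO. Hsp90b1 (-0.28) and Pdia3 (-0.24), further chaperones of the endoplasmic reticulum, were lower without overlap within either solvent. So were Hspd1 (-0.26) of the mitochondria and Hsph1 (-0.32) of the cytosol. Sesn2, a stress-induced inhibitor of mTORC1, fell by 0.51 and the asparaginyl-tRNA synthetase gene Nars by 0.34. Chac1 and Asns, named after their values were seen, had the largest decreases of the ATF4 list, -0.86 (limma, adjusted p = 0.0286) and -0.78 (limma, adjusted p = 0.000105).

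Ribosomal protein genes went the other way, with 14 of 20 higher, 1 lower and a median of 0.11. Rps3 rose by 0.14 (limma, adjusted p = 1.02e-06), from 1627 ± 32.1 (SD, n = 5) to 1837 ± 69.2 TPM (SD, n = 4) in DMSO. The differences were small, 0.15 for Rpl13 and 0.11 for Rpl19, and families with many pseudogene copies leave the split of reads uncertain. Of 20 genes that build ribosomes, 7 were lower and 1 higher as deposited (median -0.072), the lower ones including Npm1 (-0.17) and the helicase gene Ddx21 (-0.12), and the higher one Myc. After rescaling 2 of the 20 were lower, near the share of all genes then lower, and 4 were with the GC trend removed or with the compared groups fitted alone.

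Of 14 interferon response genes measured, 5 were higher and none lower (median 0.12), in all 19 leave-outs. Gbp2, a guanylate-binding protein gene, rose by 0.56 (limma, adjusted p = 0.000184), from 28.9 ± 5.91 (SD, n = 5) to 49.3 ± 12.7 TPM (SD, n = 4) in DMSO. The GTPase genes Igtp (0.22) and Ifi47 (0.20) and the deubiquitinase-like gene Usp18 (0.48) also rose. Among 15 S100, galectin and annexin genes, 6 were lower and 4 higher, or 2 higher without the DMSO Div.1 library of replicate 1. Lgals1, which encodes galectin-1, fell by 0.41 (limma, adjusted p = 3.3e-07), Anxa2 by 0.63 and Vim, the vimentin gene, by 0.30. Clustered histone genes, whose mRNA is mostly not polyadenylated and so is poorly captured here, had 3 higher and 1 lower of 20, and 5 higher without the methanol Div.1 library of replicate 10.

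The lists of Th1 genes, Th2 genes, TGFb targets, activation cytokines, inhibitory receptors, G1 regulators, p53 targets, cell death genes and hypoxia-inducible genes outside glycolysis each had at most 6 of 8 to 18 members called, in mixed directions, except that the Th2 list, with 4 measured, had 1 higher. Their counts moved by up to 2 members when single libraries were left out. Within them, the TGFb feedback gene Skil fell by 0.20 and the p53 target Rrm2b fell by 0.40 without overlap within either solvent. Cdk6 fell by 0.17 and Ero1l by 0.31. The prolyl hydroxylase gene P4ha1 rose by 0.25.

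**Figure D2:**
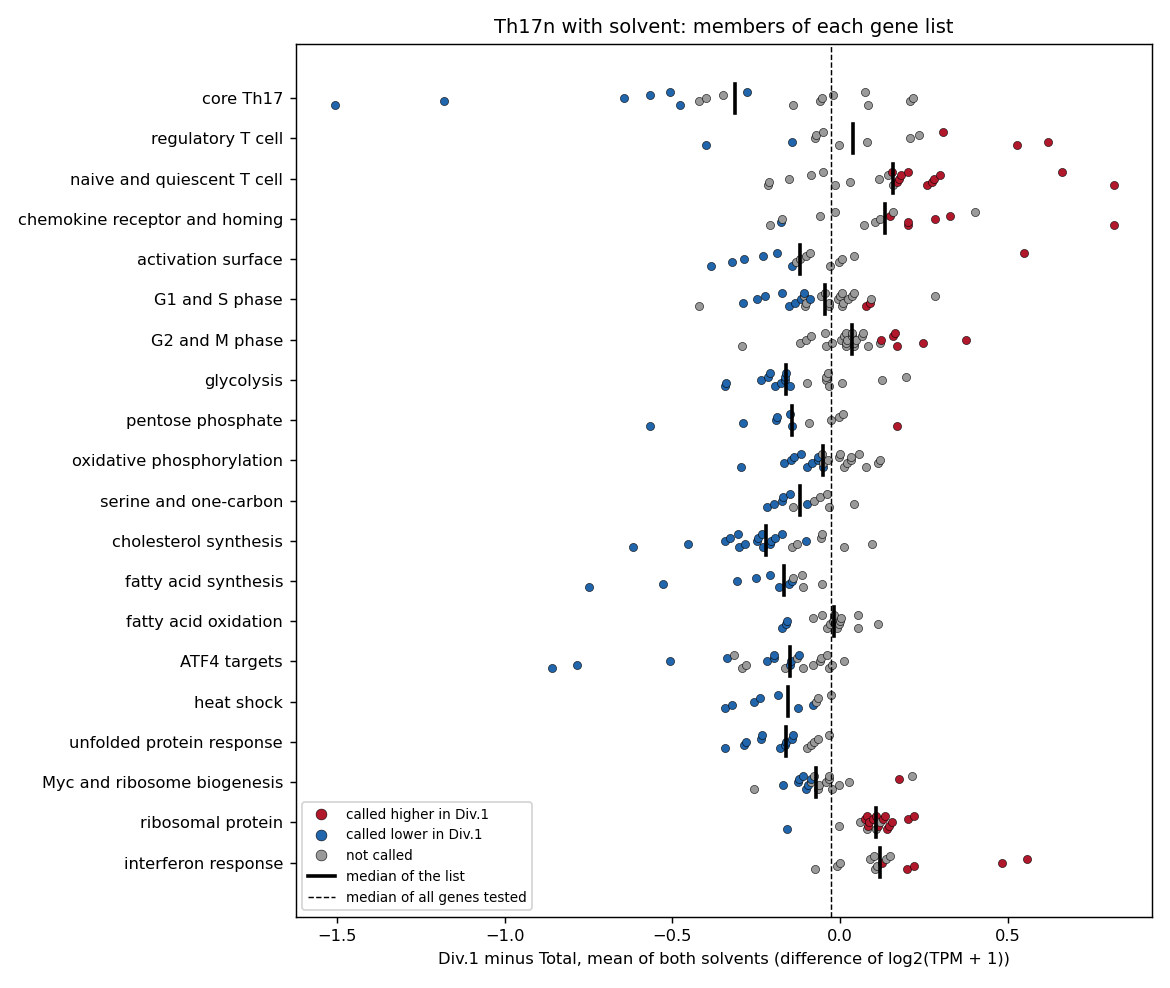
Difference between Div.1 and Total (horizontal axis, log2(TPM + 1) scale, mean of both solvents) of each measured member of 20 gene lists, where each point is a gene, red and blue points were called higher and lower, and thick bars are list medians. The cholesterol synthesis list has 16 of 22 members called lower, and the ribosomal protein list has 14 of 20 called higher.

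The sort difference was called for more genes in DMSO than in methanol. In DMSO 1696 genes were called (15.9%), 359 higher and 1337 lower. In methanol 319 were called (2.99%), 80 higher and 239 lower. A test of the difference between the solvents called none (0% of genes), with 623 genes at an unadjusted p under 0.05 (limma). The 2 solvents are therefore not shown to differ for any gene. The DMSO count fell to 1129 without Div.1 replicate 1. The methanol count moved with single libraries. It was 35, 137 and 186 without Div.1 replicate 6, 7 or 8, and 198, 139 and 95 without Total replicate 7, 8 or 10. It rose to 763 without Div.1 replicate 10. Acsl4, for example, was -0.71 ± 0.085 in DMSO and -0.32 ± 0.080 in methanol, with an adjusted p of the difference of 0.641 (limma). Lsp1, Pdpn, Cd5l and Il17a had 1 direction and no overlap in both solvents, which the rule that named them required.

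The most similar comparison is the same sort in the pathogenic Th17p cultures with solvent, which shares no library with this one. There 2069 genes were called (19.4%). A total of 832 genes were called in both cell types with the same sign, 35.6% of the Th17n calls and 40.2% of the Th17p calls. Lsp1 rose by 0.64 in Th17p and H2afv by 0.48, while Ccne1 fell by 0.40 and Idh1 by 0.59. Of the lists, G2 and M phase had 13 of 28 higher and none lower in Th17p, and the ribosomal protein list had 11 of 20 higher. In Th17p 8.63% of all genes were higher and 10.8% lower.

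A test of the difference between the cell types called 545 genes (5.11%), 208 with the more positive value in Th17n and 337 with the more negative. That count was 334 without the Th17n DMSO Total library of replicate 1 and 345 without the Th17p DMSO Div.1 library of replicate 1. Glycolysis had 6 of 19 genes with the more negative difference in Th17n, against 3.16% of all genes, and none the other way. In Th17p the glycolysis median was 0.046, with 1 gene lower and 1 higher. Activation surface genes had 6 of 15 more negative in Th17n, and in Th17p 6 of the 15 were higher and 1 lower. Tfrc fell in Th17n and stood at -0.050 ± 0.058 in Th17p (difference -0.34 ± 0.082; adjusted p = 0.00858; limma). Ctla4 stood at -0.40 and 0.16 (difference -0.56 ± 0.12; adjusted p = 0.00176; limma). The Il23r and Il21 differences were also the more negative in Th17n (adjusted p = 0.0371 and 0.016; limma), and so was that of Maf (0.0184). Maf means in Th17p were 1.04 TPM in Div.1 and 0.714 TPM in Total with DMSO, and 0.943 and 0.841 TPM with methanol, near the bottom of the log2(TPM + 1) scale. For Il17a the difference between cell types was not called (-0.68 ± 0.46; adjusted p = 0.442), so its fall is not shown to be particular to Th17n.

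Cd5l, Pdpn and Cyp1b1 had the most negative differences between the cell types at -1.31 ± 0.29, -1.25 ± 0.18 and -1.08 ± 0.22 (limma, adjusted p = 0.00385, 2.12e-06 and 0.00161). Pdpn and Cyp1b1 were nearly silent in Th17p, with Pdpn at means of 0.0989 and 0.220 TPM in Div.1 and Total with DMSO, so no fall could be measured there. Foxp3 and Cd101 were likewise under 1 TPM on average in Th17p. Cd5l was expressed in Th17p, at 14.7 ± 2.63 TPM in Div.1 and 16.8 ± 0.617 TPM in Total with methanol (SD, n = 5 each), and was not called there (0.064 ± 0.21; adjusted p = 0.877). The histone gene Hist1h2ai followed (-0.92), through an increase in Th17p (1.38) that exceeded its value in Th17n (0.46 ± 0.19; adjusted p = 0.0689). The most positive differences were those of Lamp1 (2.23), Dusp2 (1.40), Scand1 (1.39) and Capns1 (1.30), and all of them fell in Th17p (-1.94, -0.996, -0.78 and -1.09). Each of these genes overlapped between the Th17p sorts with DMSO. Lamp1 ran there from 0.731 to 32.8 TPM in Div.1 and from 15.2 to 65.7 TPM in Total. Capns1 was at 1.02 to 3.44 TPM and 3.33 to 10.5 TPM. In Th17n, Lamp1 (0.29 ± 0.35; adjusted p = 0.622), Dusp2 (0.40 ± 0.23; adjusted p = 0.219) and Capns1 (0.21 ± 0.22; adjusted p = 0.548) were not called, and Scand1 (0.61 ± 0.23; adjusted p = 0.0418) lost its call without any 1 of 11 of the 19 libraries, down to 0.42 (adjusted p = 0.158) without the DMSO Total library of replicate 1. Vim fell more in Th17p (-0.71) than in Th17n (-0.30; difference adjusted p = 0.00342, limma).

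**Figure D3:**
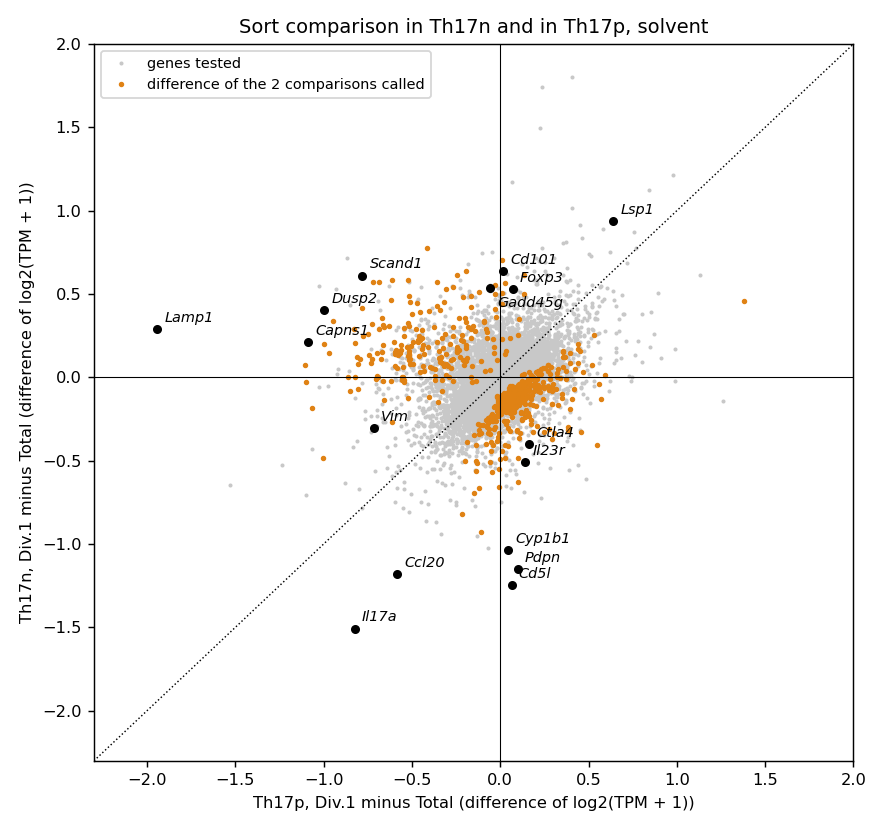
Difference between Div.1 and Total in Th17n (vertical axis) against that in Th17p (horizontal axis), both as means over the 2 solvents on the log2(TPM + 1) scale, for all 10672 genes, with the 545 genes whose difference between cell types was called in orange and named genes in black. Lsp1 and Il17a lie in the same direction in both cell types, whereas Pdpn, Cd5l and Cyp1b1 lie low in Th17n and near 0 in Th17p, and Lamp1 lies low in Th17p.

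The same sort was made in Th17n cultures that received EGCG (20 uM) or DHEA (50 uM), in 20 libraries apart from those above. With EGCG 19 genes were called (0.178%), 12 higher and 7 lower, and with DHEA 314 (2.94%), 259 higher and 55 lower. Of the DHEA calls, 98 were also called with solvent, 7 of them with the same sign. Tests of the difference, which use the solvent libraries again, called 1420 genes between EGCG and DMSO (13.3%) and 725 between DHEA and methanol (6.79%). Il17a stood at 0.11 ± 0.44 with EGCG and 0.59 ± 0.44 with DHEA, and Pdpn at 0.030 ± 0.17 and 0.61 ± 0.17. For Pdpn the difference from the solvent was called in both cases (limma, adjusted p = 0.000194 for EGCG and 1.39e-05 for DHEA), and for Il17a with DHEA only (0.0633 and 0.0389). The Pdpn level with EGCG was 121 ± 3.28 TPM in Div.1 and 119 ± 13.8 TPM in Total (SD, n = 5 each), and with DHEA it was 44.5 ± 8.38 and 28.8 ± 5.51 TPM (SD, n = 5 each). Lsp1, higher in Div.1 with either solvent, stood at 0.069 ± 0.11 with EGCG and -0.23 ± 0.11 with DHEA (difference from the solvent, limma, adjusted p = 1.03e-05 and 4.72e-05). Pdpn and Lsp1 were named for the size of their change with solvent, which favours a called difference here. Of 22 cholesterol synthesis genes none was called with EGCG or with DHEA, and 9 and 6 had a higher difference than with their solvent, against 10.8% and 5.12% of all genes.

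The compound counts moved with single libraries. The EGCG count was 7, 9 and 5 without Div.1 replicate 2, 3 or 4 and 11 without Total replicate 1. It rose to 358 and 47 without Div.1 replicate 1 or 5, and to 49, 105 and 58 without Total replicate 2, 4 or 5. The DHEA count was 110 and 87 without Div.1 replicate 7 or 10 and 157, 148 and 108 without Total replicate 6, 8 or 9. The count between DHEA and methanol was 365 without methanol Div.1 replicate 6, 417 without methanol Total replicate 10, 378 and 387 without DHEA Div.1 replicate 7 or 10 and 417 without DHEA Total replicate 9. It was 260 with the compared groups fitted alone and 435 with well A4 added. The count between EGCG and DMSO was 643 with the GC trend removed.

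**Figure D4:**
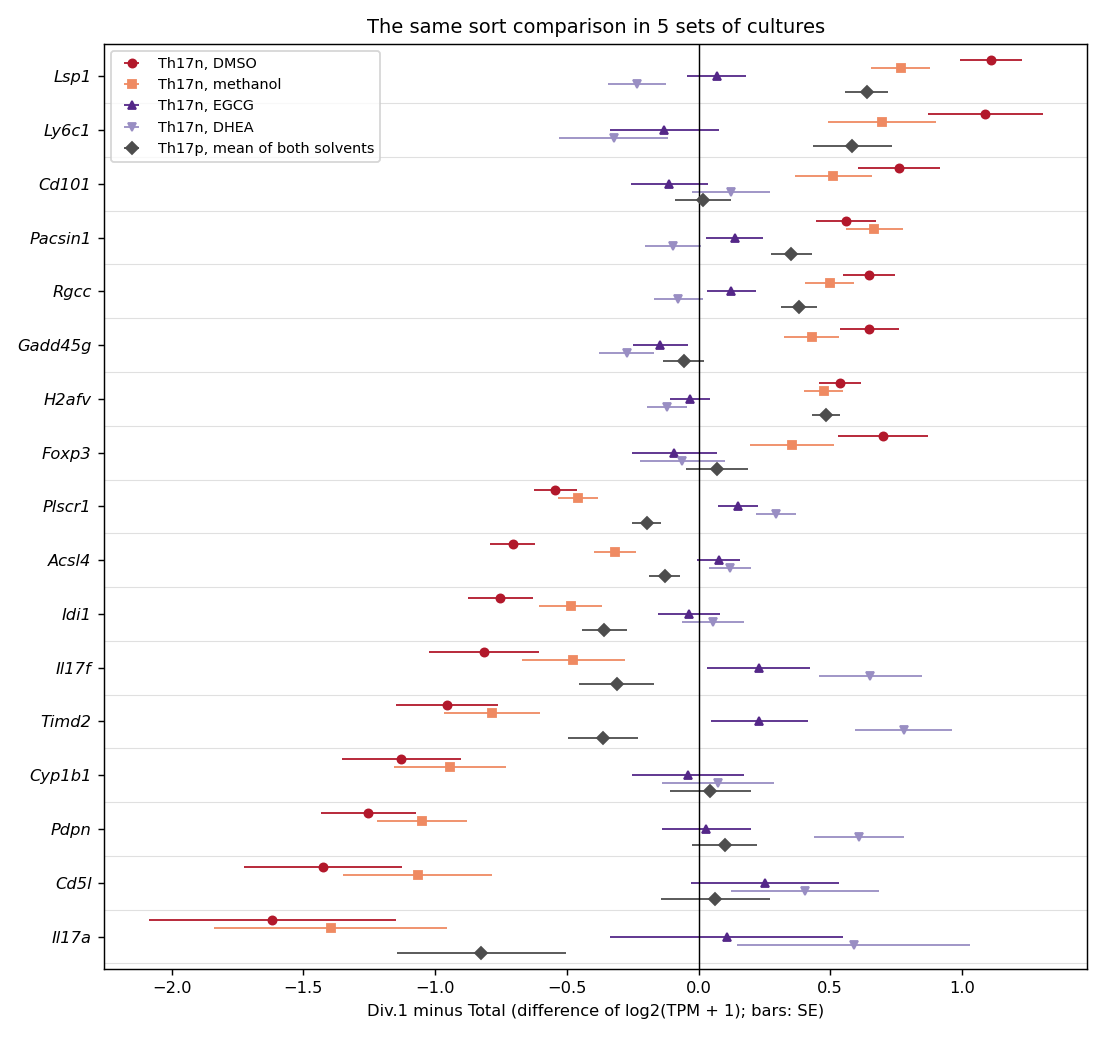
Difference between Div.1 and Total (horizontal axis, log2(TPM + 1) scale, bars are the SE) of 17 named genes in Th17n with DMSO, methanol, EGCG or DHEA and in Th17p with solvent. In each row the DMSO and methanol points lie on the same side of 0, and the EGCG and DHEA points lie nearer to 0 or on the other side. Apart from Foxp3 and Cyp1b1, the genes were chosen for large differences without overlap in either solvent. That choice fixes the shared side in the solvents and favours smaller values in the other cultures.

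The base composition of transcripts moved with the sort difference. Across 10256 genes with a known transcript sequence, Spearman's rho between transcript GC content and the difference was 0.389 over both solvents, 0.402 in DMSO and 0.268 in methanol, where genes are not independent replicates. Genes called higher had a median GC content of 54.5% and genes called lower 46.1%, against 50.8% over all. The rho was 0.335 in Th17p, -0.247 with EGCG and -0.0330 with DHEA. After a GC trend was removed from each library, an alternative chosen after the data were seen, 1830 genes were called, 751 higher (7.04%) and 1079 lower (10.1%), and 1449 of the 2337 calls were kept with the same sign. In DMSO alone 1084 were called. Then 15 of 22 cholesterol genes, 11 of 19 glycolysis genes, 10 of 23 ATF4 targets, 6 of 18 core Th17 genes and 3 of 15 activation surface genes were lower, and 11 of 21 naive and quiescent genes and 14 of 20 ribosomal protein genes were higher. Il17a stood at -1.38 (limma, adjusted p = 0.00124), Pdpn at -1.12 and Lsp1 at 0.93. Of 148 named calls 23 were lost, among them those of Il23r, Il2ra, Cd44, Cdkn1b, Scand1, Skil, Npm1 and Ddx21 above (adjusted p = 0.0522, 0.521, 0.0581, 0.0647, 0.109, 0.309, 0.139 and 0.176; limma).

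**Figure D5:**
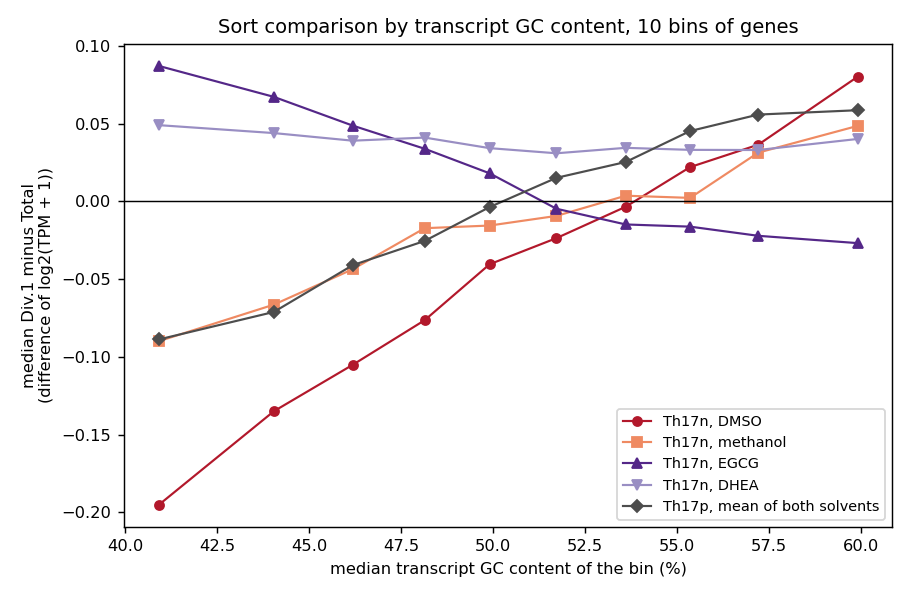
Median difference between Div.1 and Total (vertical axis, log2(TPM + 1) scale) in 10 bins of genes ordered by transcript GC content (horizontal axis, median of the bin in %), for 5 sets of cultures. In DMSO the median rises from -0.20 in the lowest bin to 0.080 in the highest, and with EGCG it falls from 0.087 to -0.027.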

How the data were processed

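Polyadenylated RNA of 79 mouse T cell libraries was sequenced, and the authors deposited 1 table of TPM values (transcript abundance corrected for length and library total) for 20465 gene symbols. Per the submitters' processing notes the tools included Trimmomatic and kallisto and the build was mm10. Versions and how transcripts were summed to genes are not given in the sources used here. Columns summed to 880077 to 895017 TPM, and no mitochondrially encoded gene is in the table used here. TPM keep no depth, so no counting interval can be given.

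Samples were grouped by their labels. Genes with at least 1 TPM in at least 4 of 78 libraries (10672) were fitted as log2(TPM + 1) on 16 group means with limma 3.58.1 in R 4.3.3, all groups sharing 1 estimate of the spread. Div.1 minus Total was taken within each solvent and averaged, and p-values were Benjamini-Hochberg adjusted over all genes tested. "Called" means an adjusted p under 0.05. Well A4 was excluded, since its plate row and its expression go against its label. The fit was tested on simulated data. Tables were handled in Python 3.11.15.

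The cells compared and the gene lists were chosen with earlier results of these data known. Named genes were those called, at 5 TPM or more and without overlap within either solvent, the 15 with the largest increase and the 15 with the largest decrease, up to 4 members of each list with the smallest p, a fixed set of T cell genes, and 4 each way for the difference between cell types. Predicted genes were passed over. Other genes are marked where they are named, and some genes of the rule are not reported here. Msmo1, Izumo1r and long non-coding RNA genes of the lists have no entry in the table used here and were not analysed here. Transcript GC content came from GENCODE M21 and promoter sequences from RefSeq (GRCm38.p6). Alternatives were another pseudocount, no filter, rescaling by the median ratio, well A4 added, edge columns left out, the compared groups alone, a replicate block, each library left out, and a GC trend removed.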

Additional observations from a re-analysis of the deposited data

Results flagged for a closer look

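In 18 of 244 sets, each the 4 or 5 libraries of a group for 1 of 61 named genes, the highest or lowest library lay far from the nearest other one by Dixon's test, which chance does for about 1 set in 20. The high libraries were Gadd45g at 45.3 TPM in DMSO Total replicate 5 (next 36.3), Trpc4ap at 73.02 TPM in DMSO Div.1 replicate 4 (next 56.1), Dstn at 89.5 TPM in DMSO Total replicate 2 (next 74.5) and Il21 at 62.4 TPM in methanol Div.1 replicate 10 (next 44.4). Further high libraries were Il22 at 7.36 TPM in DMSO Div.1 replicate 3 (next 1.23), Il22 at 8.83 TPM in methanol Div.1 replicate 7 (next 2.41), Il2 at 292 TPM in DMSO Div.1 replicate 3 (next 112) and Klf2 at 3.83 TPM in methanol Div.1 replicate 6 (next 1.94). The last high ones were Ccnd2 at 123 TPM in methanol Div.1 replicate 10 (next 103), Ccne1 at 105 TPM in methanol Total replicate 7 (next 90.1) and G6pdx at 65.5 TPM in methanol Total replicate 10 (next 55.02). The low libraries were Pacsin1 at 4.35 TPM in methanol Div.1 replicate 7 (next 5.32), Lbh at 11.99 TPM in methanol Div.1 replicate 10 (next 14.1) and Trib2 at 10.6 TPM in methanol Total replicate 10 (next 14.2). Further low libraries were Tapbp at 47.3 TPM in methanol Total replicate 9 (next 51.5), Perp at 15.9 TPM in DMSO Total replicate 1 (next 18.8) and Ccr6 at 15.2 TPM in methanol Total replicate 7 (next 24.3). The last low ones were Ccnd3 at 241 TPM in DMSO Total replicate 2 (next 280.3).

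The difference between Div.1 and Total was compared between Th17n and Th17p for 67 genes, those named for the size of their change, those of the fixed set and those named for this comparison, and it differed for 22 of them (limma on the difference of differences, log2 scale, adjusted p over all 10672 genes). By limma it was the more positive in Th17n for Cd101 (0.62; adjusted p = 0.00858), Gadd45g (0.60; adjusted p = 0.000459), Lbh (0.36; adjusted p = 0.0185), Tapbp (0.25; adjusted p = 0.0476) and Lgmn (0.43; adjusted p = 0.0057). By limma the same held for Batf (0.28; adjusted p = 0.00696), Lamp1 (2.23; adjusted p = 0.00411), Dusp2 (1.40; adjusted p = 0.00597), Scand1 (1.39; adjusted p = 0.00508) and Capns1 (1.30; adjusted p = 0.00696). By limma it was the more negative in Th17n for Cd5l (-1.31; adjusted p = 0.00385), Pdpn (-1.25; adjusted p = 2.12e-06), Tubb6 (-0.55; adjusted p = 0.0102), Acsl4 (-0.38; adjusted p = 0.00292), Sesn2 (-0.45; adjusted p = 0.0165) and Plscr1 (-0.30; adjusted p = 0.0129). It was likewise more negative by limma for Il21 (-0.52; adjusted p = 0.016), Maf (-0.46; adjusted p = 0.0184), Il23r (-0.65; adjusted p = 0.0371), Ccnd2 (-0.33; adjusted p = 0.00444), Cyp1b1 (-1.08; adjusted p = 0.00161) and Hist1h2ai (-0.92; adjusted p = 0.0284). Of these, Pdpn, Cyp1b1 and Cd101 were under 1 TPM on average in every Th17p solvent group.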

How the results depend on the processing

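The count over both solvents stayed within 1.5 times its value of 2337 under each alternative, at 2298 with a pseudocount of 0.1, 2039 with no filter, 2262 after rescaling, 1834 with well A4 added, 2092 with the compared groups fitted alone and 1976 to 2611 when single libraries were left out. Leaving out single libraries gave 1129 to 1712 calls in DMSO, 35 to 763 in methanol, 0 to 0 for the difference between solvents, 334 to 715 for the difference from Th17p, 5 to 358 with EGCG and 87 to 433 with DHEA. With well A4 added, methanol gave 102, the difference from Th17p 249, EGCG 8 and DHEA 188, and Foxp3 turned to -0.086. Without the wells of plate columns 1 and 10, methanol gave 515, the difference from Th17p 859, EGCG 325 and DHEA 521. Fitting the compared groups alone, with fewer libraries to estimate the spread, gave 11 in methanol and 0 with EGCG. Rescaling gave 137 with EGCG, and the difference from Th17p fell to 313 with no filter. A pseudocount of 0.1 called 1 gene between solvents. Removing the GC trend, an alternative chosen after the data were seen, gave 1084 in DMSO and 34 with EGCG. The cause of these moves was not tested.

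Well columns number the replicates, and no label ties a number to a mouse. Deviations of the 9 same-numbered pairs of Div.1 and Total correlated at 0.035 to 0.315, 6 of them above 0.1, and 8 of the 9 Div.1 libraries correlated best with the Total library of their own number. With the replicate block 2829 genes were called over both solvents, 966 higher and 1863 lower, 1417 in DMSO, 308 in methanol, 1 between solvents, 1267 against Th17p, 65 with EGCG and 377 with DHEA. Of 148 named genes called, 133 stayed called without each of the 19 libraries in turn, 143 after rescaling and 125 with the GC trend removed. With the block Il9 (adjusted p = 0.000195), Gata3 (0.0407), Hist1h2ai (0.0246) and Dusp2 (0.000363) were called as well (limma). The calls of Lag3 and Bcl2l11 then ended (0.0694 and 0.103). Of the G2 and M phase genes 8 were then higher and 3 lower. Rescaling added the calls of Batf (0.0411) and Mki67 (0.0437). With well A4 added, 4 of 19 glycolysis genes and 4 of 23 ATF4 targets were lower, and 6 of 21 naive and quiescent genes were higher. Of all 10672 genes, 1361 were then lower and 473 higher, so the 2 lower counts lay nearer to the share of all genes. TPM keep no depth, so how far low genes rest on few reads is unknown.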
